A study of Mus musculus with 9 samples.

Results

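The 44 genes described here encode proteins of the synaptic vesicle and of the machinery that docks, primes and fuses it, and they were taken as a fixed list of gene symbols. All 44 were found among the 18193 genes that the platform annotation names by a single symbol on the array, through 108 probe sets, and each gene was represented by the probe set with the highest mean over all arrays. The values come from 9 Affymetrix mouse arrays. The labels give 3 animals at postnatal day 6 with the genotype GAD65-GFP, a transgene that puts green fluorescent protein under the control of the Gad2 promoter, active in GABAergic neurons. Each animal gave a piece of dorsal, of intermediate and of ventral spinal cord (n = 3 per region), so the regions share age, genotype and animals, and a wild-type group was not analysed here. No strain is given and no sorting of fluorescent cells is mentioned, so the values are read as those of whole tissue pieces.

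Transmitter release follows a common scheme. Vesicle SNARE proteins of the VAMP family pair with the plasma membrane SNAREs syntaxin and SNAP-25 and pull the membranes together, synaptotagmins act as calcium sensors, and complexins bind the assembled SNAREs and regulate fusion. Rab3, RIM, Munc13, bassoon and piccolo organise docking and priming at the active zone, synapsins hold vesicles in reserve, and NSF with its SNAP adaptors takes spent SNARE complexes apart. Many of these proteins have paralogs that do the same step with different speed or calcium affinity. Synaptotagmin-2 and VAMP1 are known from fast synapses of the hindbrain, the spinal cord and the neuromuscular junction, where they serve beside or in place of synaptotagmin-1 and VAMP2.

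Of the 44 genes, 43 passed the filter on dim probe sets and were tested. Cplx3, a complexin best known from the retina, read the table's minimum of 2.15 on every array and was not tested. Syt6, Syt10 and Sv2c passed the filter but lay within 0.5 of that floor on every array, so nothing can be said of their regional pattern. The filter value, 2.14606, lay just above the minimum of 2.14597, so genes near the floor were kept. The background shares below include such genes, which have little room to differ. Among the tested members only Syt6, Syt10 and Sv2c lay there on every array. How far this lowers the background shares was not measured. The probe set values are read as log2, the model standard error follows each ± sign, and a gene was called when its limma p-value, adjusted by Benjamini-Hochberg over all 13959 genes tested, was under 0.05. Values of single arrays are given in the order of animals 1, 2 and 3. Nothing in the labels says whether the arrays were run together, and with n = 3 the number of arrays limits the precision.

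The set was lowest in the ventral pieces. In dorsal against ventral pieces 36 of 43 members were called, where 52.8% of all genes tested were called. Of these, 30 were higher (background 24.5%) and 6 lower (28.2%). In intermediate against ventral pieces 35 of 43 were called against a background of 48.2%, with 32 higher (23.4%) and 3 lower (24.9%). In intermediate against dorsal pieces the set split, with 27 of 43 called against a background of 30.1%, 16 higher (15.9%) and 11 lower (14.2%). The median difference of the tested members was 0.81 for dorsal minus ventral, 0.97 for intermediate minus ventral and 0.20 for intermediate minus dorsal, and that of all genes tested was 0 in each. These comparisons share arrays with one another and are given side by side.

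Counts past a difference of 1 on the log2 scale, a factor of 2, were 19 of 43 for dorsal against ventral (background 12.9%), 21 for intermediate against ventral (9.51%) and 7 for intermediate against dorsal (3.85%). The calls between intermediate and dorsal pieces were lost most often. Their number was 9 without animal 3, 15 without animal 1, 16 without dorsal array 3, intermediate array 1 or intermediate array 3, and 13 when only the arrays of these regions were fitted. Of these 27 calls, 8 were made in all 12 fits that left out an animal or an array (leave-one-out fits), as were 30 of the 35 between intermediate and ventral and 33 of the 36 between dorsal and ventral pieces. The shares of all genes called in the reduced fits are not given, so these losses are not read as particular to the members.

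**Figure D1:**
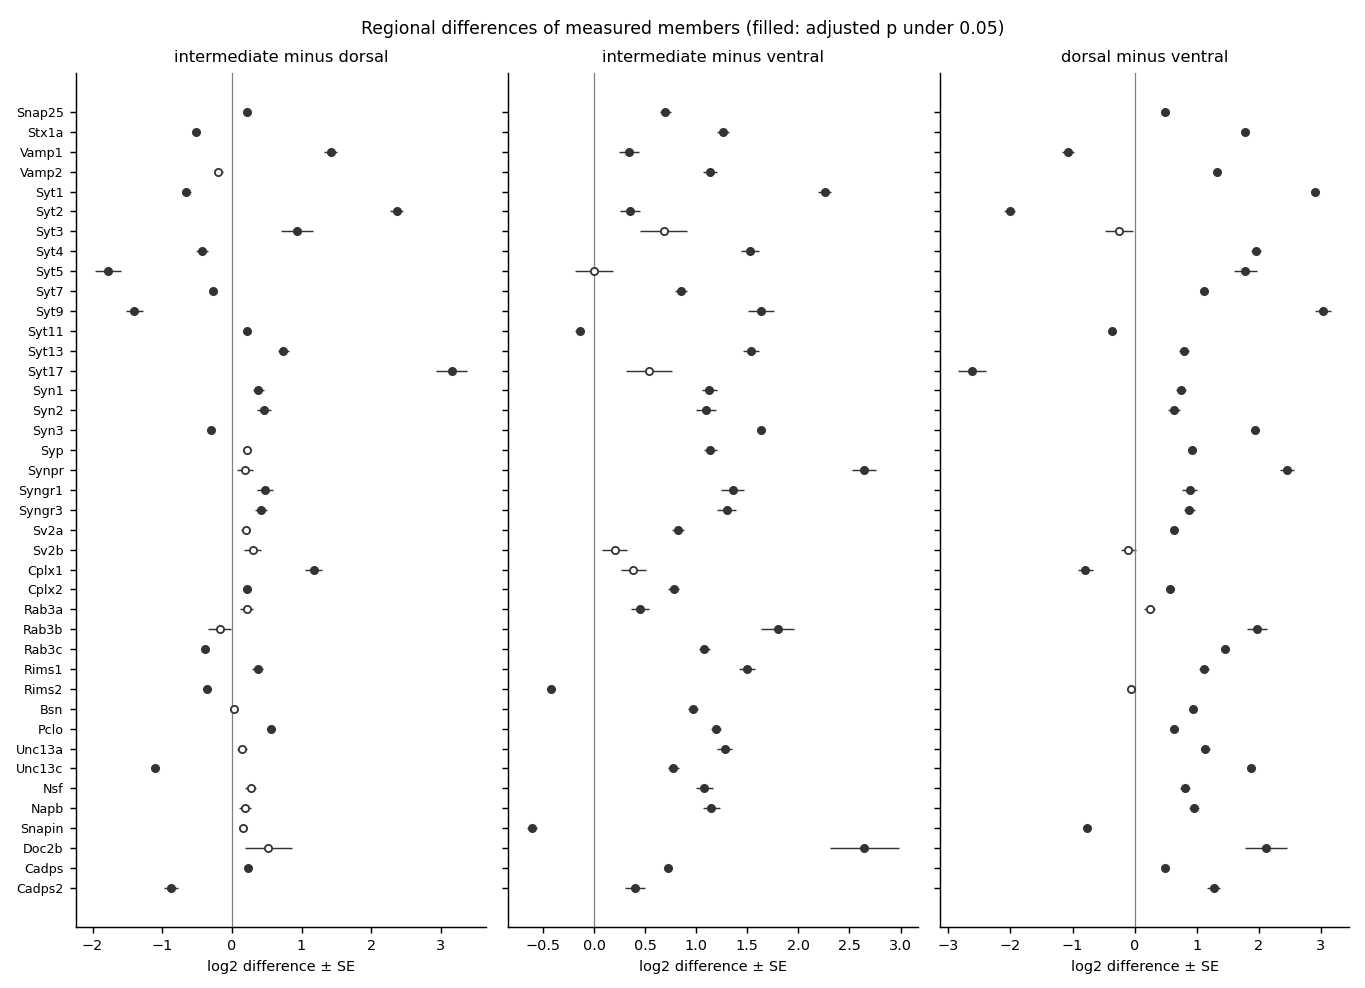
Difference between regions for the 40 members that reached more than 0.5 above the floor on some array, as log2 difference with the model standard error (x axis) for each gene (y axis). Filled points passed an adjusted p of 0.05. In the right and middle panels most genes lie to the right of 0, higher than in ventral pieces, while Vamp1, Syt2, Syt17 and Cplx1 lie to the left of 0 in the right panel. In the left panel genes fall on both sides.

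Neuronal markers were lowest in the same pieces as the set. Of 14 pan-neuronal genes, intermediate pieces had 13 above ventral and 0 below (median 0.79), 10 were higher and 1 lower in dorsal than in ventral (median 0.48), and against dorsal pieces the intermediate ones had 5 higher and 3 lower (median 0.13). Their summed level, as log2 of the sum of linear values, ran from 16.65 to 16.86 in dorsal, 16.91 to 17.01 in intermediate and 16.37 to 16.41 in ventral pieces. Glial genes ran the other way. All 7 astrocyte genes and 8 of 9 oligodendrocyte lineage genes were lower in dorsal than in ventral pieces, with summed levels of 16.23 to 16.37 against 16.91 to 16.94 and of 16.62 to 16.72 against 17.24 to 17.31. In whole pieces, fewer neurons and less RNA per neuron cannot be told apart. Results relative to the pan-neuronal genes are therefore given beside the others.

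Some markers of the labelled regions were missing. The cholinergic genes Chat, Slc18a3 and Slc5a7, listed here as motor neuron markers, and Isl2 lay within 0.5 of the floor on all 9 arrays, ventral ones included, although Prph averaged 9.41 in ventral against 2.15 in dorsal pieces. Isl1 averaged 6.92 in ventral and 6.94 in intermediate against 2.41 in dorsal pieces. Mnx1 averaged 2.61 in ventral and 2.15 in the other pieces. Of the sensory ganglion genes on the array, 4 of 5 (Avil, Trpv1, Scn10a and P2rx3) were within 0.5 of the floor everywhere. The summed level of 3 Schwann cell genes was 12.11 to 14.10 in dorsal, 8.37 to 9.41 in intermediate and 12.65 to 13.21 in ventral pieces, and all 8 microglia and all 6 meningeal genes were lower in intermediate than in both other pieces. The summed microglial level was 11.97 to 12.24 in dorsal, 11.41 to 11.66 in intermediate and 12.22 to 12.37 in ventral pieces, and the meningeal one 13.54 to 14.69, 11.26 to 11.68 and 13.94 to 14.37. The part of these cells in the results below was not tested.

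Among the SNAREs the VAMP paralogs went in opposite directions. Vamp1 encodes a vesicle SNARE of fast synapses and stood at 10.26, 10.56 and 10.73 in dorsal, 11.89, 11.85 and 12.08 in intermediate and 11.59, 11.58 and 11.62 in ventral pieces. The dorsal arrays were lowest and did not overlap with the others. Vamp1 was 2.67-fold above dorsal in intermediate pieces (1.42 ± 0.09, adjusted p = 0.00102) and lower in dorsal than in ventral pieces by 2.11-fold (-1.08 ± 0.09, adjusted p = 0.000669). Its smaller excess in intermediate over ventral pieces (0.34 ± 0.09, adjusted p = 0.036) turned to -0.39 relative to the pan-neuronal genes and was lost in 8 of the 12 leave-one-out fits (highest adjusted p = 0.193, without animal 3), and also in the fit without the animal block (adjusted p = 0.0512). Vamp2, the main vesicle SNARE of the brain, read 12.14, 12.44 and 12.24 in dorsal, 12.09, 12.07 and 12.07 in intermediate and 10.97, 11.02 and 10.85 in ventral pieces. Here the ventral arrays were lowest. Vamp2 was 2.51-fold higher in dorsal than in ventral pieces (1.33 ± 0.07, adjusted p = 0.000161) and 2.20-fold higher in intermediate (1.14 ± 0.07, adjusted p = 0.000395), while intermediate and dorsal pieces differed by -0.19 ± 0.07 (adjusted p = 0.109). Tested within arrays, the dorsal minus ventral difference of Vamp1 was below that of Vamp2 by 5.30-fold (-2.40 ± 0.05, adjusted p = 2.61e-05). Here and below such differences between paralogs are those of the gene named first minus those of the second.

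Of the plasma membrane SNAREs, Stx1a, which encodes syntaxin-1A, was lower at each step from dorsal to ventral. Its values were 11.74, 11.97 and 11.93 in dorsal, 11.36, 11.36 and 11.36 in intermediate and 10.13, 10.12 and 10.04 in ventral pieces, and the regions did not overlap. The intermediate values were identical to the last digit on all 3 arrays, so its spread there was not measured. Stx1a was 3.43-fold higher in dorsal than in ventral pieces (1.78 ± 0.06, adjusted p = 6.47e-05), 1.26 ± 0.06 (adjusted p = 0.000257) apart between intermediate and ventral, and -0.52 ± 0.06 (adjusted p = 0.00503) between intermediate and dorsal; the last call was lost without animal 2 (adjusted p = 0.0737) and without animal 3 (adjusted p = 0.0848). Snap25, the shared SNARE of these synapses, stood between 13.81 and 14.60 on all arrays. It differed by 0.49 ± 0.05 (adjusted p = 0.00117) between dorsal and ventral and 0.70 ± 0.05 (adjusted p = 0.000561) between intermediate and ventral pieces. Relative to the pan-neuronal genes these became -0.13 and -0.032, so its direction between regions depends on the scale. Its difference between intermediate and dorsal pieces (0.21 ± 0.05, adjusted p = 0.0367) was lost in 9 of the 12 leave-one-out fits (highest adjusted p = 0.243, without animal 3).

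The fast calcium sensors showed the widest split in the set. Syt1 encodes synaptotagmin-1, the sensor of synchronous release in the forebrain, and stood at 12.58, 12.81 and 12.57 in dorsal, 11.997, 11.997 and 11.997 in intermediate and 9.66, 9.79 and 9.78 in ventral pieces. Each step from dorsal to ventral was downward and without overlap. The 3 intermediate values were identical to the last digit, so the spread of Syt1 there was not measured and its standard errors may be too small. Syt1 was 7.52-fold higher in dorsal than in ventral pieces (2.91 ± 0.06, adjusted p = 2.88e-05), 4.78-fold higher in intermediate than in ventral (2.26 ± 0.06, adjusted p = 0.00012) and lower in intermediate than in dorsal (-0.65 ± 0.06, adjusted p = 0.0023). Syt9, a related fast sensor, read 8.78, 9.06 and 9.00 in dorsal, 7.54, 7.54 and 7.54 in intermediate and 6.02, 6.06 and 5.65 in ventral pieces and took the same order. Its intermediate values were nearly identical, with a standard deviation of 0.0017. It was 8.21-fold higher in dorsal than in ventral pieces (3.04 ± 0.12, adjusted p = 8.97e-05), with intermediate pieces 3.10-fold above ventral (1.63 ± 0.12, adjusted p = 0.000631) and below dorsal (-1.40 ± 0.12, adjusted p = 0.0021).

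Syt2, the fast sensor of hindbrain and spinal synapses, ran the opposite way. Its values were 8.27, 8.11 and 8.66 in dorsal, 10.72, 10.53 and 10.88 in intermediate and 10.44, 10.25 and 10.39 in ventral pieces, lowest in dorsal pieces without overlap. Syt2 was 5.15-fold above dorsal in intermediate pieces (2.37 ± 0.09, adjusted p = 0.000382) and lower in dorsal than in ventral pieces by 4.04-fold (-2.01 ± 0.09, adjusted p = 0.000121). Between intermediate and ventral pieces the difference was 0.35 ± 0.09 (adjusted p = 0.0336), which turned to -0.38 relative to the pan-neuronal genes and was lost in 9 of the 12 leave-one-out fits (highest adjusted p = 0.151, without animal 2), as well as in the fit without the animal block (adjusted p = 0.11). Set against each other within arrays, the dorsal minus ventral differences of Syt1 and Syt2 lay 4.92 ± 0.14 (adjusted p = 4.51e-05) apart, a factor of 30.4, and those of Syt2 and Syt9 -5.05 ± 0.07 (adjusted p = 1.95e-05), a factor of 33.1. The difference between Syt1 and Syt9 did not pass in that comparison (-0.13 ± 0.15, adjusted p = 0.542). The Syt2 pattern rests on 1 probe set, since its other probe sets did not exceed 3.04 and 2.52 on any array.

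Promoters of these opposed paralogs are shown so that the genes that moved together can be compared. RefSeq's table (GRCm38.p6) held a window for 32 of the 44 genes, and the 250 bases before the start listed first are given for Vamp1, Syt2 and Cplx1, which were low in dorsal pieces, and for Syt1, Syt9 and Cplx2, which were high there relative to ventral ones. Capitals mark matches, on either strand, to the GC box GGGCGG, the E box CANNTG, the nuclear receptor element AAGGTCA or the letters TGACG, part of the cyclic AMP response element. In the Syt2 window the last 2 overlap by 1 base.
Vamp1 (chr6:125215331-125215580, plus strand): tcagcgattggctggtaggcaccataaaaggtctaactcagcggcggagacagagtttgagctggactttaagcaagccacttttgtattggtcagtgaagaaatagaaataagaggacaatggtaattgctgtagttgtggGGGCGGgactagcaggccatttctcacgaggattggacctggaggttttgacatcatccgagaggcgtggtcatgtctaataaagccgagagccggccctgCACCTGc
Syt2 (chr1:134646362-134646611, plus strand): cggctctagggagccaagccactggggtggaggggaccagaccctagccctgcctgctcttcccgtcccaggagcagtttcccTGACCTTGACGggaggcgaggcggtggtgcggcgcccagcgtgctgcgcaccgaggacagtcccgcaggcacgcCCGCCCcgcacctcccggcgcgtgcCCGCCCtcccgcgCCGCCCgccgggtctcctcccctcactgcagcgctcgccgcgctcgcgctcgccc
Cplx1 (chr5:108550028-108550277, minus strand): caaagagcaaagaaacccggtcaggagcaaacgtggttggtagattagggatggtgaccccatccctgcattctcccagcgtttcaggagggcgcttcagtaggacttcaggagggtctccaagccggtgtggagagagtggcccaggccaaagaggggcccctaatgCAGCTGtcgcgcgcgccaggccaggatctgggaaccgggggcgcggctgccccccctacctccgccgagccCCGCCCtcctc
Syt1 (chr10:109010976-109011225, minus strand): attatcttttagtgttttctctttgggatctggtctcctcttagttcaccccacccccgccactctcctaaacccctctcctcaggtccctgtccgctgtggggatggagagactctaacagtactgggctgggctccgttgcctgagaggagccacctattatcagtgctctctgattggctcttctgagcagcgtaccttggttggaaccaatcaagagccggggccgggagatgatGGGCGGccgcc
Syt9 (chr7:107370540-107370789, plus strand): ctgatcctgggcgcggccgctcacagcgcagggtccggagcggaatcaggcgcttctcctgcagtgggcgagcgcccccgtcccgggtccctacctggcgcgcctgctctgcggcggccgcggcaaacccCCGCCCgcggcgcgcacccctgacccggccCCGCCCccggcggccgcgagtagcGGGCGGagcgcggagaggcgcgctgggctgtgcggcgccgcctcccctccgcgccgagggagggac
Cplx2 (chr13:54302306-54302555, plus strand): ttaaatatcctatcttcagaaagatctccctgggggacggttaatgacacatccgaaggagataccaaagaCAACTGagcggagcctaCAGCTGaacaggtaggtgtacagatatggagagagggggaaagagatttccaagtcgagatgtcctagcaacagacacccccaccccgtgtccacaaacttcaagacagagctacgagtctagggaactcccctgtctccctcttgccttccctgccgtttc
The GC box was found in the windows of 23 of 32 members (71.9%), against 32.7% of all 32851 windows and 42.6% of the 21263 windows of protein-coding genes. Of the 6 windows shown, 5 held it, Cplx2 being the exception. The E box was found in 19 members (59.4% against 66.2% of all windows), TGACG in 7 (21.9% against 17.8%), AAGGTCA in 2, Syt2 and Syt6 (6.25% against 4.08%), and the letters CAGCACC, part of the RE1 element bound by the repressor REST, in 3 (9.38% against 5.73%). The TATA box TATAAA was in 2 members (6.25% against 12.4%) and the homeodomain core TAATTA in 1 (3.12% against 4.84%). Among the windows of protein-coding genes the shares were 62.8% for the E box, 20.2% for TGACG and 3.59% for AAGGTCA. They were 5.7% for CAGCACC, 11.6% for TATAAA and 4.31% for TAATTA. Windows were not matched for GC content, whose median over all windows was 52.4%. No motif searched was held by Vamp1, Syt2 and Cplx1 together and missing from Syt1, Syt9 and Cplx2. A match is a match of letters in a window and not a binding site.

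**Figure D2:**
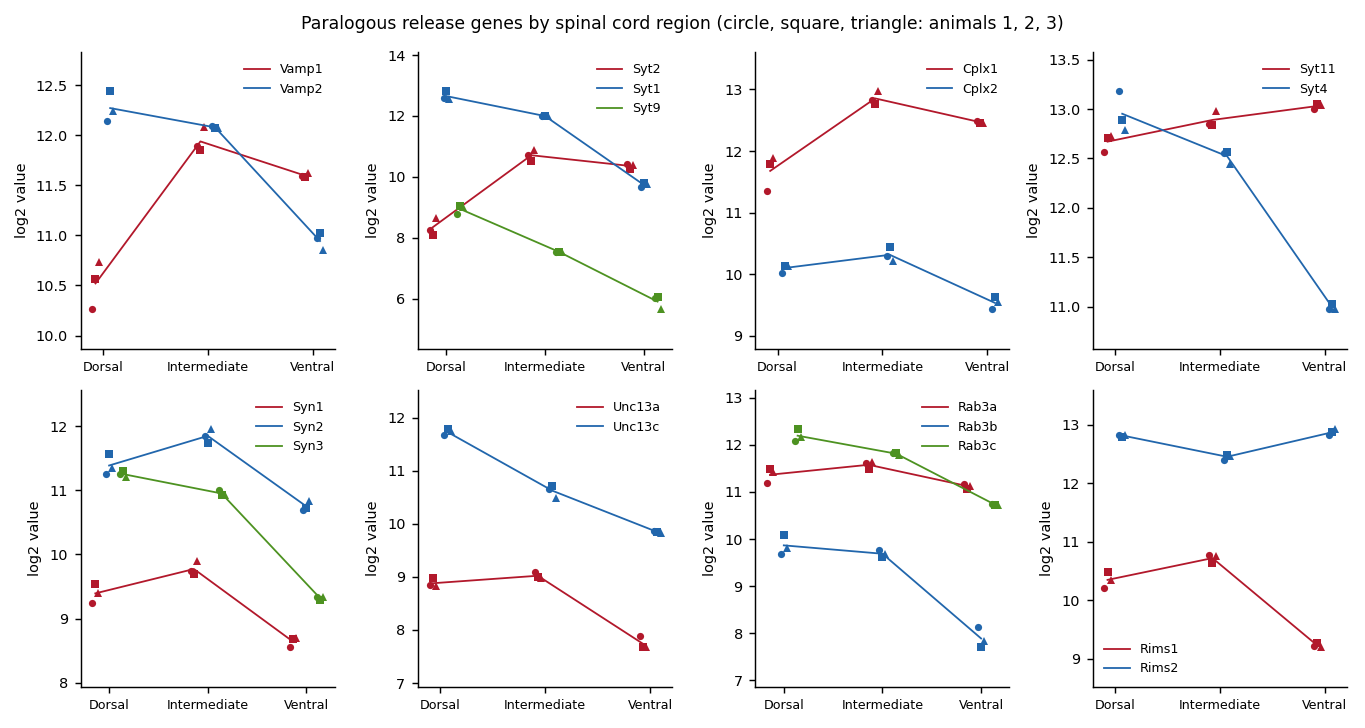
Values by region for 8 groups of paralogs, as log2 values (y axis) in dorsal, intermediate and ventral pieces (x axis), with symbols for animals 1 to 3 and lines through the region means. Vamp1, Syt2 and Cplx1 are lowest in dorsal pieces, while Vamp2, Syt1, Syt9, Syt4 and Syn3 are lowest in ventral pieces. Heights of different genes come from different probe sets and are not compared.

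The other synaptotagmins covered the range between these. Syt4, a synaptotagmin found on dense-core and other vesicles that is not thought to trigger release by itself, stood at 13.18, 12.89 and 12.79 in dorsal, 12.55, 12.57 and 12.44 in intermediate and 10.97, 11.03 and 10.98 in ventral pieces. It was lowest in ventral pieces and 3.88-fold higher in dorsal ones (1.96 ± 0.09, adjusted p = 0.000104). The intermediate pieces lay between, 1.53 ± 0.09 (adjusted p = 0.000324) from ventral and -0.43 ± 0.09 (adjusted p = 0.0213) from dorsal, where the call was lost in 6 of the 12 leave-one-out fits (highest adjusted p = 0.131, without animal 3). Its paralog Syt11 read 12.57, 12.71 and 12.73 in dorsal, 12.85, 12.84 and 12.98 in intermediate and 13.00, 13.05 and 13.04 in ventral pieces. It was slightly higher at each step from dorsal to ventral. Syt11 was lower in dorsal than in ventral pieces (-0.36 ± 0.04, adjusted p = 0.00165) and higher in intermediate than in dorsal (0.22 ± 0.04, adjusted p = 0.018), a call that was lost in 7 of the 12 leave-one-out fits (highest adjusted p = 0.14, without animal 1). Against ventral it differed by -0.14 ± 0.04 (adjusted p = 0.0437), and this call was lost in 10 of the 12 leave-one-out fits (highest adjusted p = 0.186, without animal 2), and in the fit without the animal block (adjusted p = 0.0742). The paralogs' dorsal minus ventral differences lay 2.32 ± 0.12 (adjusted p = 0.000148) apart.

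Syt17, a synaptotagmin without a membrane anchor of the usual kind, had the largest single difference in the set. Its values were 5.17, 6.02 and 6.19 in dorsal, 8.88, 8.81 and 9.15 in intermediate and 8.39, 8.39 and 8.44 in ventral pieces, low in all dorsal pieces. It was 8.91-fold above dorsal in intermediate pieces (3.16 ± 0.23, adjusted p = 0.0012) and lower in dorsal than in ventral pieces by 6.13-fold (-2.62 ± 0.23, adjusted p = 0.000643); intermediate and ventral pieces differed by 0.54 ± 0.23 (adjusted p = 0.116), which turned to -0.19 relative to the pan-neuronal genes and passed on neither scale. Its other probe set did not exceed 2.85 on any array. Syt13, which lacks calcium binding, peaked in intermediate pieces with 9.16, 9.47 and 9.31 in dorsal, 10.10, 10.01 and 10.05 in intermediate and 8.43, 8.60 and 8.51 in ventral pieces. The regions did not overlap. It was 2.90-fold above ventral (1.54 ± 0.08, adjusted p = 0.000264) and 1.67-fold above dorsal (0.74 ± 0.08, adjusted p = 0.00332), and the latter call was lost without animal 3 (adjusted p = 0.0824).

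Syt7, a slow sensor of high calcium affinity, stood at 11.64, 11.96 and 11.84 in dorsal, 11.54, 11.57 and 11.54 in intermediate and 10.65, 10.75 and 10.68 in ventral pieces. It was 2.18-fold higher in dorsal than in ventral pieces (1.12 ± 0.06, adjusted p = 0.000159) and 0.85 ± 0.06 (adjusted p = 0.00051) higher in intermediate than in ventral, while its difference between intermediate and dorsal (-0.27 ± 0.06, adjusted p = 0.0276) was lost in 9 of the 12 leave-one-out fits (highest adjusted p = 0.234, without animal 3). Syt5 stood above the floor in dorsal pieces only, with 3.78, 4.42 and 3.60 in dorsal, 2.15, 2.15 and 2.15 in intermediate and 2.15, 2.15 and 2.15 in ventral pieces. Both other regions stood at the floor, so the dorsal excess is at least 3.44-fold over ventral (adjusted p = 0.00117) and at least 3.44-fold over intermediate (adjusted p = 0.00323, but 0.0629 without animal 1). Syt3 ran near the low end with 3.95, 4.62 and 4.50 in dorsal, 5.27, 4.94 and 5.66 in intermediate and 4.62, 4.62 and 4.58 in ventral pieces. It was higher in intermediate than in dorsal pieces (0.93 ± 0.23, adjusted p = 0.0408), a call that was lost in 10 of the 12 leave-one-out fits (highest adjusted p = 0.248, without animal 3). Its difference between intermediate and ventral pieces did not pass (0.68 ± 0.23, adjusted p = 0.0687) and was -0.051 relative to the pan-neuronal genes, where its dorsal minus ventral difference (-0.87) passed.

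Complexins, the small proteins that bind assembled SNAREs, repeated the split of the VAMPs. Cplx1 stood at 11.36, 11.79 and 11.88 in dorsal, 12.83, 12.77 and 12.97 in intermediate and 12.49, 12.46 and 12.46 in ventral pieces, lowest in dorsal pieces. It was 2.26-fold above dorsal in intermediate pieces (1.18 ± 0.12, adjusted p = 0.00338), a call lost without animal 3 (adjusted p = 0.0617), and 1.73-fold lower in dorsal than in ventral pieces (-0.79 ± 0.12, adjusted p = 0.00497), a call lost without animal 2 (adjusted p = 0.052). Its difference from ventral in intermediate pieces did not pass (0.39 ± 0.12, adjusted p = 0.0581) and turned to -0.35, past the threshold, relative to the pan-neuronal genes. All 3 Cplx1 probe sets gave the same order of regions. Cplx2 read 10.03, 10.14 and 10.14 in dorsal, 10.30, 10.44 and 10.21 in intermediate and 9.43, 9.64 and 9.55 in ventral pieces. It was higher in dorsal than in ventral pieces (0.57 ± 0.05, adjusted p = 0.000924) and in intermediate than in ventral (0.78 ± 0.05, adjusted p = 0.000525), but relative to the pan-neuronal genes these differences were -0.054 and 0.048 and did not pass. Its difference between intermediate and dorsal pieces (0.21 ± 0.05, adjusted p = 0.0431) was lost in 11 of the 12 leave-one-out fits (highest adjusted p = 0.262, without animal 2) and in the fit without the animal block (adjusted p = 0.0737), and the most variable probe set gave -0.04. The dorsal minus ventral differences of Cplx1 and Cplx2 lay -1.36 ± 0.14 (adjusted p = 0.00121) apart.

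Genes of the synaptophysin and synaptogyrin family were lowest in ventral pieces. Synpr encodes synaptoporin and stood at 12.69, 12.30 and 12.52 in dorsal, 12.76, 12.75 and 12.55 in intermediate and 9.98, 10.06 and 10.10 in ventral pieces. Dorsal and intermediate arrays overlapped and lay above all ventral ones. Synpr was 6.24-fold higher in intermediate than in ventral pieces (2.64 ± 0.12, adjusted p = 0.000213) and 5.50-fold higher in dorsal than in ventral (2.46 ± 0.12, adjusted p = 0.000121), whereas intermediate and dorsal differed by 0.18 ± 0.12 (adjusted p = 0.326). Its paralog Syp, which encodes synaptophysin and is widely used as a marker of presynaptic terminals, read 11.83, 12.01 and 11.86 in dorsal, 12.15, 12.04 and 12.16 in intermediate and 10.92, 11.04 and 10.97 in ventral pieces. It was 2.20-fold higher in intermediate (1.14 ± 0.06, adjusted p = 0.000321) and 1.89-fold higher in dorsal than in ventral pieces (0.92 ± 0.06, adjusted p = 0.000334). The dorsal minus ventral difference of Synpr exceeded that of Syp by 2.90-fold (-1.54 ± 0.16, adjusted p = 0.00123 for Syp minus Synpr).

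The synaptogyrins, relatives of synaptophysin, had nearly the same differences. Syngr1 stood at 9.07, 9.34 and 9.34 in dorsal, 9.73, 9.56 and 9.87 in intermediate and 8.27, 8.51 and 8.31 in ventral pieces. Syngr3 stood at 9.41, 9.63 and 9.60 in dorsal, 9.93, 9.81 and 10.16 in intermediate and 8.65, 8.68 and 8.68 in ventral pieces. Both were highest in intermediate and lowest in ventral pieces. Intermediate exceeded ventral by 1.36 ± 0.12 (adjusted p = 0.000853) for Syngr1 and 1.30 ± 0.09 (adjusted p = 0.000516) for Syngr3, and dorsal exceeded ventral by 0.89 ± 0.12 (adjusted p = 0.00263) and 0.88 ± 0.09 (adjusted p = 0.00113). Their differences between intermediate and dorsal pieces, 0.47 ± 0.12 (adjusted p = 0.0391) and 0.42 ± 0.09 (adjusted p = 0.0266), were lost in 10 of the 12 leave-one-out fits (highest adjusted p = 0.264, without animal 1) and lost in 8 of the 12 leave-one-out fits (highest adjusted p = 0.207, without animal 1) in that order. The difference between the synaptogyrins was 0.0066 ± 0.06 (adjusted p = 1) for dorsal minus ventral, with an unadjusted 95% interval of -0.15 to 0.16, but -0.58 when the mean of all probe sets of each gene was used.

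Among the SV2 glycoproteins, Sv2a, the binding site of the antiepileptic levetiracetam, was higher in dorsal than in ventral pieces (0.63 ± 0.06, adjusted p = 0.00091) and in intermediate than in ventral (0.82 ± 0.06, adjusted p = 0.00058). Relative to the pan-neuronal genes these were 0.0086 and 0.092 and did not pass. Sv2b passed in none of the 3 comparisons, with differences from -0.10 to 0.30, and fell below ventral in both regions relative to the pan-neuronal genes (-0.72 for dorsal and -0.53 for intermediate). Sv2a exceeded Sv2b in its dorsal minus ventral difference by 0.73 ± 0.07 (adjusted p = 0.00107).

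Synapsins, which tether vesicles to each other and to the cytoskeleton, were all lowest in ventral pieces and differed in where they peaked. Syn1 stood at 9.25, 9.54 and 9.40 in dorsal, 9.74, 9.69 and 9.89 in intermediate and 8.55, 8.69 and 8.70 in ventral pieces. Syn2 stood at 11.25, 11.56 and 11.34 in dorsal, 11.85, 11.74 and 11.95 in intermediate and 10.69, 10.72 and 10.84 in ventral pieces. Both peaked in intermediate pieces, 1.13 ± 0.07 (adjusted p = 0.00046) and 1.10 ± 0.10 (adjusted p = 0.000923) above ventral. Over dorsal the excess was 0.38 ± 0.07 (adjusted p = 0.02) for Syn1, which was lost in 6 of the 12 leave-one-out fits (highest adjusted p = 0.195, without animal 3), and 0.46 ± 0.10 (adjusted p = 0.0246) for Syn2, which was lost in 9 of the 12 leave-one-out fits (highest adjusted p = 0.209, without animal 3). In dorsal against ventral pieces Syn1 was 0.75 ± 0.07 (adjusted p = 0.00101) higher and Syn2 0.64 ± 0.10 (adjusted p = 0.00442), the latter lost without animal 1 (adjusted p = 0.0532) and at 0.019 relative to the pan-neuronal genes. Syn3 peaked in dorsal pieces instead, with 11.25, 11.30 and 11.20 in dorsal, 11.00, 10.93 and 10.92 in intermediate and 9.33, 9.29 and 9.33 in ventral pieces. It was 3.83-fold higher in dorsal than in ventral pieces (1.94 ± 0.03, adjusted p = 2.47e-05), 3.10-fold higher in intermediate than in ventral (1.63 ± 0.03, adjusted p = 7.60e-05), and lower in intermediate than in dorsal (-0.30 ± 0.03, adjusted p = 0.00307), where the call was lost without animal 1 (adjusted p = 0.0507) and without animal 3 (adjusted p = 0.0508). The dorsal minus ventral difference of Syn3 exceeded that of Syn1 (-1.19 ± 0.06, adjusted p = 0.000143 for Syn1 minus Syn3) and of Syn2 (-1.30 ± 0.07, adjusted p = 0.000195).

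The Rab3 GTPases, which recruit vesicles to the active zone, differed among themselves. Rab3b read 9.69, 10.09 and 9.82 in dorsal, 9.76, 9.62 and 9.69 in intermediate and 8.14, 7.70 and 7.84 in ventral pieces, with dorsal and intermediate arrays overlapping above the ventral ones. It was 3.93-fold higher in dorsal (1.98 ± 0.16, adjusted p = 0.000533) and 3.48-fold higher in intermediate than in ventral pieces (1.80 ± 0.16, adjusted p = 0.000961). Rab3c read 12.08, 12.33 and 12.17 in dorsal, 11.82, 11.83 and 11.78 in intermediate and 10.74, 10.73 and 10.73 in ventral pieces, lower at each step from dorsal to ventral, 2.76-fold higher in dorsal than in ventral (1.46 ± 0.06, adjusted p = 7.47e-05), 2.11-fold higher in intermediate than in ventral (1.08 ± 0.06, adjusted p = 0.000276) and -0.38 ± 0.06 (adjusted p = 0.00841) for intermediate minus dorsal, a call that was lost without animal 3 (adjusted p = 0.124). Rab3a, the most studied of them, differed by 0.24 ± 0.09 (adjusted p = 0.0772) between dorsal and ventral pieces and 0.45 ± 0.09 (adjusted p = 0.0118) between intermediate and ventral. Both turned negative relative to the pan-neuronal genes (-0.38 and -0.28), and the latter call was lost in 5 of the 12 leave-one-out fits (highest adjusted p = 0.137, without animal 3). The dorsal minus ventral difference of Rab3a lay below that of Rab3b (-1.74 ± 0.09, adjusted p = 0.000155) and of Rab3c (-1.22 ± 0.04, adjusted p = 6.41e-05).

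At the active zone, the RIM paralogs differed. Rims1 encodes a scaffold that ties calcium channels to primed vesicles and stood at 10.21, 10.48 and 10.35 in dorsal, 10.77, 10.63 and 10.75 in intermediate and 9.21, 9.27 and 9.19 in ventral pieces. It peaked in intermediate pieces, 2.82-fold above ventral (1.49 ± 0.08, adjusted p = 0.0003), with dorsal 2.18-fold above ventral (1.12 ± 0.08, adjusted p = 0.000373). Its excess over dorsal (0.37 ± 0.08, adjusted p = 0.0269) was lost in 9 of the 12 leave-one-out fits (highest adjusted p = 0.224, without animal 3). Rims2 was the 1 member lowest in intermediate pieces (background 4.2%), with 12.82, 12.79 and 12.83 in dorsal, 12.40, 12.48 and 12.46 in intermediate and 12.82, 12.87 and 12.92 in ventral pieces. It was lower there than in dorsal (-0.36 ± 0.03, adjusted p = 0.00137) and ventral pieces (-0.42 ± 0.03, adjusted p = 0.000457), and dorsal and ventral overlapped (-0.055 ± 0.03, adjusted p = 0.165). Relative to the pan-neuronal genes Rims2 was lower in dorsal than in ventral pieces (-0.67). The intermediate minus ventral difference of Rims1 exceeded that of Rims2 by 3.77-fold (1.91 ± 0.10, adjusted p = 0.00031).

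Bsn and Pclo encode the large scaffolds bassoon and piccolo. Bsn was higher in dorsal (0.94 ± 0.05, adjusted p = 0.000181) and in intermediate (0.97 ± 0.05, adjusted p = 0.000294) than in ventral pieces and differed by 0.032 ± 0.05 (adjusted p = 0.735) between intermediate and dorsal. Pclo stood at 9.89, 9.99 and 9.99 in dorsal, 10.51, 10.49 and 10.57 in intermediate and 9.39, 9.34 and 9.26 in ventral pieces, highest in intermediate pieces. It exceeded ventral by 1.19 ± 0.05 (adjusted p = 0.000198) and dorsal by 0.56 ± 0.05 (adjusted p = 0.0021) in intermediate pieces, and dorsal exceeded ventral by 0.63 ± 0.05 (adjusted p = 0.00049). The Pclo probe sets disagreed. A second one averaged 10.46 in dorsal, 9.50 in intermediate and 8.60 in ventral pieces, so that intermediate minus dorsal was -0.96, while another gave 0.74, and the comparison of Pclo with Bsn turned with the choice among them.

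The priming factors of the Munc13 and CAPS families also split by paralog. Unc13c stood at 11.67, 11.78 and 11.74 in dorsal, 10.66, 10.71 and 10.49 in intermediate and 9.86, 9.85 and 9.82 in ventral pieces, lower at each step from dorsal to ventral. It was 3.69-fold higher in dorsal than in ventral pieces (1.88 ± 0.05, adjusted p = 4.57e-05), lower in intermediate than in dorsal (-1.11 ± 0.05, adjusted p = 0.000513) and higher than in ventral (0.78 ± 0.05, adjusted p = 0.000511), the last difference being 0.047 and not past the threshold relative to the pan-neuronal genes. Unc13a, which encodes the main Munc13 of brain synapses, stood at 8.84, 8.98 and 8.82 in dorsal, 9.09, 8.99 and 8.98 in intermediate and 7.89, 7.67 and 7.67 in ventral pieces. Dorsal and intermediate arrays overlapped (0.14 ± 0.07, adjusted p = 0.223) and lay above ventral, by 1.14 ± 0.07 (adjusted p = 0.000261) and 1.28 ± 0.07 (adjusted p = 0.000324). The intermediate minus dorsal differences of Unc13a and Unc13c lay 1.25 ± 0.08 (adjusted p = 0.0008) apart.

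Cadps and Cadps2 encode CAPS proteins, which prime dense-core vesicles. Cadps2 stood at 10.79, 11.04 and 10.78 in dorsal, 10.13, 10.00 and 9.87 in intermediate and 9.52, 9.60 and 9.68 in ventral pieces, 2.42-fold higher in dorsal than in ventral pieces (1.27 ± 0.10, adjusted p = 0.000476). It was lower in intermediate than in dorsal (-0.87 ± 0.10, adjusted p = 0.00424), a call that was lost without animal 2 (adjusted p = 0.0594) and without animal 3 (adjusted p = 0.0592). Its difference between intermediate and ventral (0.40 ± 0.10, adjusted p = 0.0254) was lost in 8 of the 12 leave-one-out fits (highest adjusted p = 0.146, without animal 1) and turned to -0.33 relative to the pan-neuronal genes. Cadps stood at 12.98, 13.11 and 13.08 in dorsal, 13.30, 13.24 and 13.32 in intermediate and 12.55, 12.55 and 12.58 in ventral pieces. It was higher in intermediate (0.73 ± 0.04, adjusted p = 0.00029) and in dorsal (0.49 ± 0.04, adjusted p = 0.000467) than in ventral pieces, and relative to the pan-neuronal genes these became -0.0055 and -0.13. Its intermediate minus dorsal difference (0.23 ± 0.04, adjusted p = 0.0121) was lost in 5 of the 12 leave-one-out fits (highest adjusted p = 0.153, without animal 3). In that comparison the paralogs lay 1.10 ± 0.08 (adjusted p = 0.00136) apart.

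The genes that recycle SNAREs were also lowest in ventral pieces. Nsf, the ATPase that unwinds spent complexes, stood at 12.16, 12.43 and 12.34 in dorsal, 12.62, 12.48 and 12.63 in intermediate and 11.50, 11.49 and 11.49 in ventral pieces. Its adaptor Napb, the beta-SNAP of brain, stood at 11.78, 11.996 and 11.84 in dorsal, 12.13, 11.96 and 12.09 in intermediate and 10.85, 11.01 and 10.89 in ventral pieces. Both were higher than in ventral pieces, Nsf by 1.08 ± 0.08 (adjusted p = 0.00058) in intermediate and 0.81 ± 0.08 (adjusted p = 0.000949) in dorsal, and Napb by 1.15 ± 0.08 (adjusted p = 0.00056) and 0.96 ± 0.08 (adjusted p = 0.000648). Neither passed between intermediate and dorsal pieces (0.27 ± 0.08, adjusted p = 0.0655 and 0.19 ± 0.08, adjusted p = 0.169).

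For intermediate minus ventral, Doc2b and Snapin stood at opposite ends of the set. Doc2b, a calcium sensor linked to spontaneous and delayed release, read 8.04, 8.51 and 8.14 in dorsal, 8.67, 8.47 and 9.11 in intermediate and 6.33, 6.50 and 5.49 in ventral pieces, with the lowest and most scattered values in ventral pieces. It was 6.26-fold higher in intermediate (2.65 ± 0.34, adjusted p = 0.00292) and 4.36-fold higher in dorsal than in ventral pieces (2.12 ± 0.34, adjusted p = 0.00529), the latter lost without animal 1 (adjusted p = 0.0574). Snapin encodes a small protein that binds SNAP-25 and also serves in the BLOC-1 complex of endosomes and lysosomes of many cell types. Its values were 9.19, 9.11 and 9.23 in dorsal, 9.23, 9.25 and 9.53 in intermediate and 9.93, 9.89 and 10.02 in ventral pieces. Ventral pieces were highest, with -0.61 ± 0.05 (adjusted p = 0.000858) for intermediate minus ventral and -0.77 ± 0.05 (adjusted p = 0.000315) for dorsal minus ventral. A dimmer probe set gave 0.04 for intermediate minus ventral and -0.17 for dorsal minus ventral.

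Read by order of regions, the members fell into a few patterns. Ventral pieces were called lower than both others in 29 members (67.4%, against 17.9% of all genes). Of these, 9 fell at each step from dorsal to ventral, namely Stx1a, Syt1, Syt4, Syt7, Syt9, Syn3, Rab3c, Unc13c and Cadps2 (20.9% against 5.75%). A further 10 were highest in intermediate and lowest in ventral pieces, namely Snap25, Syt13, Syn1, Syn2, Syngr1, Syngr3, Cplx2, Rims1, Pclo and Cadps (23.3% against 2.24%). Vamp1 and Syt2 were highest in intermediate and lowest in dorsal pieces (4.65% against 1.39%), which made 12 members called above both other regions (27.9% against 6.25%). Dorsal pieces were called lower than both others in 5 members, Vamp1, Syt2, Syt11, Syt17 and Cplx1 (11.6%), a share near the background of 10.3%. Ventral pieces were called higher than both others in Syt11 and Snapin (4.65% against 20.2%), and 4 members, Sv2b and the near-floor Syt6, Syt10 and Sv2c, were called nowhere (9.3% against 37.8%). The orders of dorsal and intermediate pieces rest on the 27 calls between them, of which 8 were kept in all 12 leave-one-out fits. Among the 10 members highest in intermediate pieces, all except Pclo lost the call over dorsal in some of these fits. Among the 9 that fell at each step, all except Syt1, Syt9 and Unc13c lost theirs in some. Several of these orders also depend on the scale. Relative to the pan-neuronal genes, 21 of the 29 members stayed lowest in ventral pieces (48.8%, against 4.64% of all genes). The centring itself shifted most genes toward ventral pieces, with 67.8% of all genes called lower in dorsal than in ventral ones. Background shares on this scale are therefore not comparable with those on the deposited scale. Of the 9, Unc13c and Cadps2 no longer fell at each step. Of the 10, only Syt13, Syn1, Syngr1, Syngr3 and Rims1 kept all 3 calls: Snap25 (-0.13) and Cadps (-0.13) were lower in dorsal than in ventral pieces, Syn2 and Pclo did not pass there, and Cplx2 passed nowhere. The excess of Pclo over dorsal also turned to -0.96 with its most variable probe set. Vamp1 (-0.39) and Syt2 (-0.38) were called below ventral in intermediate pieces, and on the deposited scale their calls above ventral were lost in 8 and 9 of the 12 leave-one-out fits. Of the 12 members called above both other regions, 7 stayed so. Dorsal pieces were lowest in 8 members (18.6% against 9.13%), including all 5 above, and ventral pieces highest in 8 (18.6% against 65.2%).

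Paralog pairs were compared by testing whether their regional differences were unequal within arrays. Of 29 pairs listed within 14 families, 27 had both genes tested, and 20 had neither gene near the floor on every array. Among the 27, 20 were called for dorsal minus ventral, 18 for intermediate minus ventral and 19 for intermediate minus dorsal, with p-values adjusted over 13986 genes and pairs, of which 52.8%, 48.3% and 30.2% were called. All but 27 of these were single genes, so the shares are in effect those of single genes. Pairs of other genes were not fitted, and no background for pairs is given. Among the 20 pairs with neither gene near the floor on every array the counts were 17, 17 and 15. They include Syt3/Syt5, called in each comparison, although Syt5 stood at the floor in both intermediate and ventral pieces, so that its values rest on a bound for Syt5 or, for intermediate minus ventral, on Syt3 alone. In the dorsal against ventral comparison 5 pairs had both genes called with opposite signs: Vamp1 with Vamp2, Syt2 with Syt1, Syt2 with Syt9, Cplx1 with Cplx2, and Syt11 with Syt4. The Cplx2 difference was no longer called relative to the pan-neuronal genes. For intermediate minus ventral 2 pairs and for intermediate minus dorsal 8 had genes called with opposite signs. The share of opposite calls among pairs of other genes was not measured, so these counts are not read as a trait of paralogs. Of all genes tested, 24.5% were called higher and 28.2% lower in dorsal than in ventral pieces. For intermediate minus dorsal the count of calls was 8 without animal 1 and 11 without animal 3.

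The pairs that did not pass between dorsal and ventral pieces were, among those measured, Syn1 with Syn2 (0.11 ± 0.04, adjusted p = 0.0736, unadjusted 95% interval 0.0065 to 0.21), Syngr1 with Syngr3, and Syt1 with Syt9 (unadjusted 95% interval -0.52 to 0.26). When genes were represented by their most variable probe set, Syt1 exceeded Syt9 by 0.44. Probe sets can respond unequally to the same change in RNA, and this was not measured. Pairs that share a gene are not independent of each other.

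**Figure D3:**
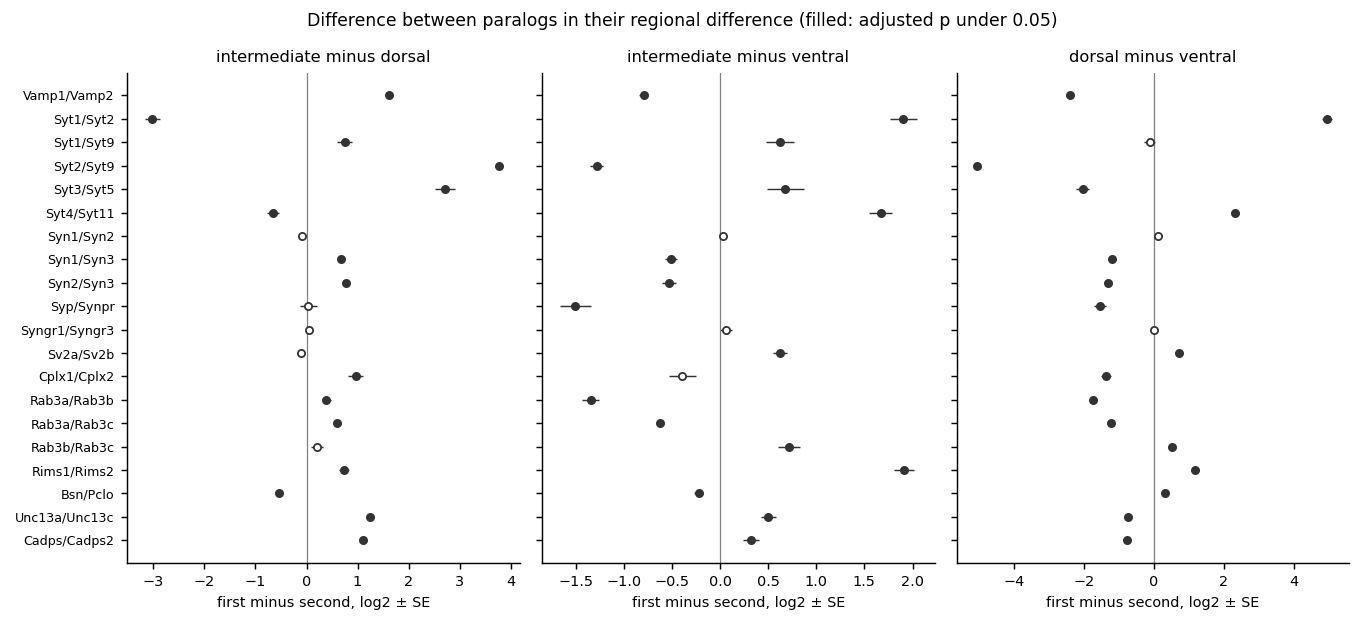
Difference between paralogs in their regional difference, first gene minus second, as log2 value with the model standard error (x axis), for the 20 pairs with neither gene near the floor on every array (y axis). Filled points passed an adjusted p of 0.05. Syt1/Syt2 (4.92) and Syt2/Syt9 (-5.05) lie farthest from 0 for dorsal minus ventral, and Syngr1/Syngr3 and Syn1/Syn2 lie near 0 in all 3 panels.

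Centring each array on the mean of the 14 pan-neuronal genes moved the median of all genes by -0.58 for dorsal minus ventral, -0.69 for intermediate minus ventral and -0.07 for intermediate minus dorsal. On this scale 24 members were higher and 12 lower in dorsal than in ventral pieces, in place of 30 and 6, and 23 lay above and 9 below ventral in intermediate pieces, in place of 32 and 3. Between intermediate and dorsal pieces the split was 16 higher and 12 lower. Of all genes on this scale, 8.5% were called higher and 67.8% lower in dorsal than in ventral pieces, 5.89% above and 72.3% below ventral in intermediate pieces, and 10% above and 20.5% below dorsal in intermediate pieces. A called dorsal excess of at least 1 over ventral was kept by 10 members: Syt9 (2.42), Syt1 (2.29), Synpr (1.84), Syt5 (1.62), Doc2b (1.504), Rab3b (1.36), Syt4 (1.34), Syn3 (1.32), Unc13c (1.26) and Stx1a (1.16). The Syt5 value is not a lower bound, since its ventral values at the floor stayed in place while its dorsal values were moved. Its place in this order therefore depends on that rule. In contrast, Syn2, Pclo, Sv2a and Cplx2 lay between -0.054 and 0.019 and did not pass. The ventral excess of Syt17 (-3.23), Syt2 (-2.63), Vamp1 (-1.70) and Cplx1 (-1.41) was larger than on the deposited scale. That follows from the centring, which lowers this difference by the same amount in every gene away from the floor. The pan-neuronal list holds genes that themselves differ by region, such as Dcx (2.22 for dorsal minus ventral) and Nefl (-1.16).

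**Figure D4:**
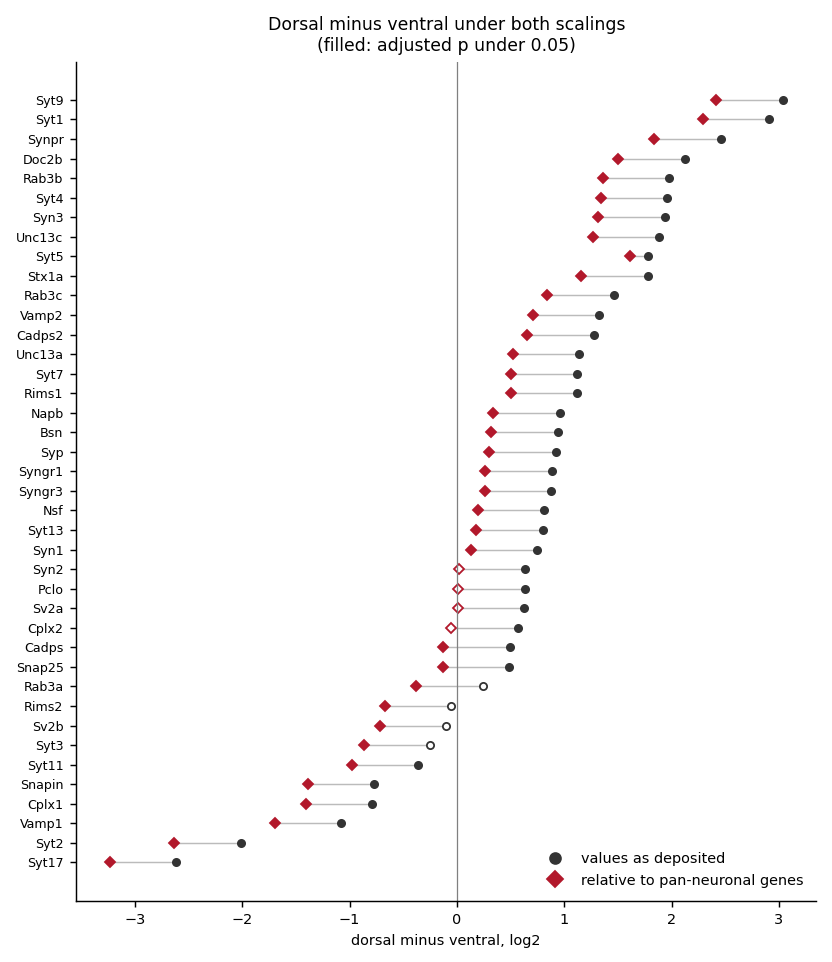
Dorsal minus ventral difference (x axis, log2) of the 40 measured members (y axis) on the deposited scale (circles) and relative to the mean of the pan-neuronal genes (diamonds). Filled symbols passed an adjusted p of 0.05. Every diamond lies to the left of its circle, and those of Snap25, Cadps, Cplx2 and Rab3a lie on the other side of 0 from their circles.

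Several members had more than 1 probe set above the floor. For genes called between dorsal and ventral pieces, 40 of 41 other probe sets of 23 genes shared the sign of the brightest one, the exception being a dim probe set of Syt2. Between intermediate and ventral pieces 40 of 42 did, while a probe set of Snapin differed in sign and one of Rims2 had the same value on all arrays. Between intermediate and dorsal pieces 30 of 35 did, the 4 against were probe sets of Syt13, Syn2, Cplx2 and Pclo, and 1 was the flat probe set of Rims2. All probe sets of Syt1, Cplx1 and Unc13c shared 1 sign in each of these comparisons. Vamp1, Syt2 and Syt17 had no other probe set that exceeded 3.04 on any array.

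**Figure D5:**
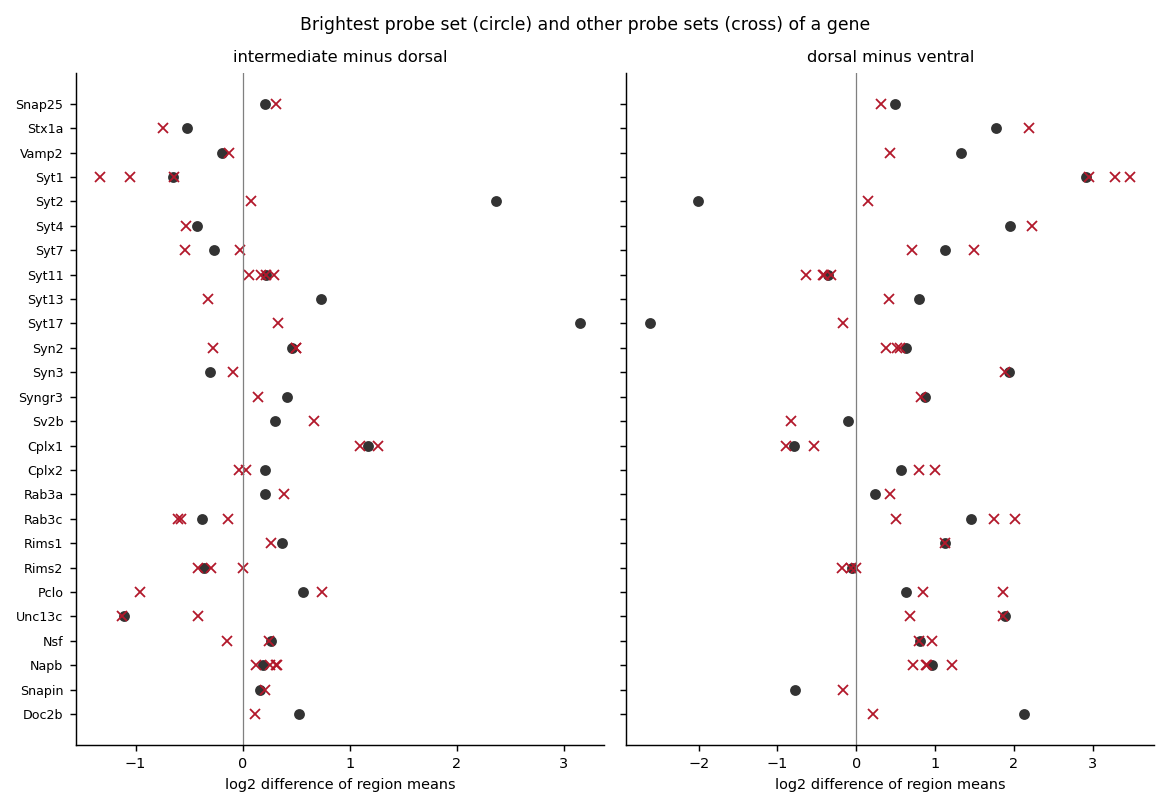
Difference of region means, as log2 (x axis), for the brightest probe set (circle) and every other probe set above the floor (cross) of the 26 members with more than 1 (y axis), for intermediate minus dorsal and dorsal minus ventral. Crosses lie on the same side of 0 as the circle in most genes, and Pclo has a cross at -0.96 in the left panel against a circle at 0.56.

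Other genes of the release pathway, outside the set, also leaned toward dorsal and intermediate pieces. Of 31 tested genes of the release machinery 17 were higher and 7 lower in dorsal than in ventral pieces (median 0.70), 18 above and 5 below ventral in intermediate pieces (0.63), and 7 above and 4 below dorsal in intermediate pieces (0.04). The shares of all genes tested were 24.5% higher and 28.2% lower in the first comparison and 23.4% and 24.9% in the second. In the third they were 15.9% and 14.2%, and the counts of the list lay near them. Doc2a (1.89 ± 0.07), Unc13b (1.64 ± 0.10), Ppfia2 (1.61 ± 0.08), Syt16 (1.58 ± 0.07), Rims3 (1.58 ± 0.07), Erc2 (1.34 ± 0.06), Rims4 (1.31 ± 0.22), Syt14 (1.19 ± 0.17) and Rab27b (1.05 ± 0.09) had a dorsal excess over ventral of at least 1. Syngr2 (-1.56 ± 0.15), Snap23 (-1.08 ± 0.11) and Vamp3 (-1.002 ± 0.06), paralogs of the set that are used outside neurons, were lower in dorsal than in ventral pieces. Unc13b, the paralog of Unc13a and Unc13c, was also the only gene of this list that differed by at least 1 between intermediate and dorsal pieces (-1.34 ± 0.10). Between intermediate and ventral pieces alone, Svop (1.24 ± 0.08), Stxbp5l (1.12 ± 0.09) and Stxbp5 (1.07 ± 0.11) also passed 1.

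Genes of vesicle endocytosis had smaller medians in both comparisons with ventral pieces. Of 20 tested, 13 were higher and 1 lower in dorsal than in ventral pieces (median 0.28), 13 above and 4 below ventral in intermediate pieces (0.38), and 3 above and 4 below dorsal in intermediate pieces (0.04). The last counts also lay near the shares of all genes, 15.9% and 14.2%. Amph, which encodes amphiphysin, was 1.40 ± 0.05 higher in dorsal than in ventral pieces, followed by the clathrin adaptor Ap2a2 (1.29 ± 0.11) and the dynamin Dnm3 (1.16 ± 0.08), which also exceeded ventral in intermediate pieces (1.002 ± 0.11 and 1.04 ± 0.08). Itsn1, the scaffold intersectin-1, was lower in dorsal (-1.42 ± 0.15) and intermediate (-1.15 ± 0.15) than in ventral pieces.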

How the data were processed

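RNA of 9 tissue pieces was measured on Affymetrix mouse arrays, 1 array per region and animal. The authors deposited 1 table of processed values for 45037 probe sets, from 2.146 to 16.27, with array medians of 3.66 to 3.75. The deposited values are read as log2 from their range, and the sources used here do not give how the authors summarised and normalized them. On each array 36.0% to 36.3% of the values were at a common minimum. A fold change at that floor is a lower bound.

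Probe sets were named from the platform annotation (34945 with 1 symbol, 932 with several, 9160 not listed there), and for each of 18193 genes the single-symbol probe set with the highest mean was used. Genes whose probe set mean lay below the 30th percentile of all probe sets were removed, which left 13959. Region differences were fitted with limma 3.58.1 in R 4.3.3 over all 9 arrays, with the animal as a fixed block, since the titles name the animal. Deviations of arrays of the same animal correlated at -0.066 to 0.246 (mean 0.081) and of different animals at -0.18 to 0.161 (mean -0.041). Residual degrees of freedom were 4 and the prior added 0.749. Paralogs were compared through the difference of both genes within each array, added as rows to the table of genes. The scripts were tested on simulated data.

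The members and lists were chosen with earlier results of these data known. All members are named, and array values are printed for those called with a difference of at least 1 in any comparison and for paralogs called in opposite directions. Genes of the related lists are named where called with a difference of at least 1. Promoter windows came from RefSeq. Protein sequences were not used here. Levels of different probe sets were not compared.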

Additional observations from a re-analysis of the deposited data

How the results depend on the processing

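Counts of called members were 27 for intermediate minus dorsal, 35 for intermediate minus ventral and 36 for dorsal minus ventral. They ranged over 9 to 28, 30 to 37 and 35 to 38 when single animals or arrays were left out. The shares of all genes called in those fits are not given. The first count was 13 when only the arrays of the regions compared were fitted. Called pairs, 19, 18 and 20, ranged over 8 to 17, 13 to 18 and 19 to 21 in the leave-one-out fits. For intermediate minus dorsal they numbered 12 without genes at the floor or with identical values in a region, a setting that left fewer pairs to test. Without the animal block the counts were 29, 34 and 37 members and 19, 19 and 20 pairs. Relative to the pan-neuronal genes, differences from ventral changed sign in intermediate pieces for Snap25 (-0.032), Vamp1 (-0.39), Syt2 (-0.38), Sv2b (-0.53), Cplx1 (-0.35), Rab3a (-0.28), Cadps (-0.0055), Cadps2 (-0.33), Syt3 (-0.051), Syt17 (-0.19) and the pairs Syt3/Syt5 (-0.052), Syt3/Syt6 (-0.055), Syt3/Syt10 (-0.051) and Sv2b/Sv2c (-0.58), and in dorsal pieces for Snap25 (-0.13), Cplx2 (-0.054), Rab3a (-0.38) and Cadps (-0.13). Those of Syt3, Syt17, Syt3/Syt6 and Syt3/Syt10 passed on neither scale. After the sign change, Snap25, Cadps and Syt3/Syt5 in intermediate pieces and Cplx2 in dorsal pieces no longer passed. Bsn turned for intermediate minus dorsal (-0.081), also without passing. Values within 0.5 of the floor were not moved by this centring. In each pair named for this scale, the gene near the floor stayed in place while its paralog moved. A pair with both genes moved keeps its difference, so these turns come from that rule. With the most variable probe set, intermediate minus dorsal turned for Cplx2 (-0.035), Pclo (-0.96) and Bsn/Pclo (0.99), intermediate minus ventral for Bsn/Pclo (0.067), and dorsal minus ventral for Syt1/Syt9 (0.44), Rab3b/Rab3c (-0.045) and Bsn/Pclo (-0.92). With the mean of all probe sets, Syngr1/Syngr3 turned for intermediate minus ventral (-0.68) and dorsal minus ventral (-0.58), as did Bsn/Pclo for dorsal minus ventral (-0.80). The cause of the turns between probe sets was not tested. Median centring, quantile normalization, other filters and the trended robust fit reversed no called difference. Probe sets near the floor limit Syt6, Syt10, Sv2c and Cplx3.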
